A study of Salix linearistipularis with 24 samples.

Results

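The *NHX* genes described here are the 5 sodium/hydrogen antiporter genes that the study named in *Salix linearistipularis*, a dioecious willow of saline-alkali land. The roots had no reference genome, so a gene is either a cluster of assembled contigs (CL7345, CL3276, CL9910 and CL2217) or a single unigene (Unigene43275). All rows whose identifier carried 1 of these 5 names were taken, which gave 42 of 253209 rows and 5 of 139844 genes. CL2217 has 14 contigs, CL3276 has 13, CL9910 has 9 and CL7345 has 5, and Unigene43275 is 1 row. The study named these genes from these same libraries, so their changes are not independent evidence about the family.

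Hydroponic female and male cuttings stood in 100 mM NaCl for 6, 12 or 24 h or in water, and RNA of their roots was sequenced. The 24 libraries form 8 groups of 3: female roots at 6, 12 and 24 h of NaCl, female control roots, male roots at 6, 12 and 24 h of NaCl, and male control roots. The labels do not name the hour of the control roots. By the growth protocol each sex was propagated from 1 individual, whereas the methods of the study name several populations, so sex and plant cannot be told apart here. The library labels do not say which plant gave which group. If groups of a sex came from different plants, NaCl and plant cannot be told apart either. Root identity was not checked against marker genes, since no table used here lists root cell markers for these contigs.

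Antiporters of the NHX family exchange Na+ or K+ for protons across membranes, driven by the proton gradient that proton pumps maintain. In Arabidopsis, NHX7 (SOS1) sits in the plasma membrane and exports Na+ from root cells, NHX1 and NHX2 sit in the vacuolar membrane and move Na+ and K+ into the vacuole, and NHX6 works in endosomes and the Golgi. By the study's Swiss-Prot annotation CL7345 matched NHX7, CL3276 and CL9910 matched NHX1, Unigene43275 matched NHX2, and CL2217 matched NHX6. By phylogeny the study placed the genes beside different poplar NHX genes, so a shared best match does not make CL3276 and CL9910 copies of the same gene.

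The primer pairs that the study designed for qPCR are the sequences tied to these 5 genes in the sources used here, and they are shown for that reason. They are 20 to 22 bases long with a GC content of 45% to 57.1%. Each is written from 5′ to 3′, with the last 5 bases, at the end from which the polymerase extends, in capitals. Which contig of a cluster a pair would amplify was not analysed here, since no contig sequences were used.
SlCL7345-qF: atggggagtgcgataGAAAA
SlCL7345-qR: caatgccgatgacgaGAAGA
SlCL3276-qF: tggtttgaggatggtatCGGAG
SlCL3276-qR: caatggcaagggcagtaGTAGA
SlCL9910-qF: acctggcataatgtgacTGAGA
SlCL9910-qR: ttccaaccataacaagaCCCAG
SlU43275-qF: gtcttatgcgtggtgctGTTTC
SlU43275-qR: gactgtgtgagaagggGTGCT
SlCL2217-qF: caggaaaggagcagcAAGCA
SlCL2217-qR: tgaccaaggacgaaggAGAGG

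Expression was deposited as FPKM, fragments per kilobase of transcript scaled to the sequenced fragments of the library, which summed to 663314 to 778064 per library. Read counts were not used here, so the depth behind single values is unknown. The 3 male libraries at 6 h stood apart from each other, and the sums and counts that rest on them are also given without single libraries. Libraries also differed in scale, with a median-ratio factor of 1.51 in male control roots and 0.644 in male roots at 24 h. The reference gene *SlActin* (CL19537) had medians of 370, 141, 56.5 and 15.9 FPKM in female roots (control, 6, 12 and 24 h). The medians of male roots were 40.4, 23.5, 56.9 and 10.1 FPKM in the same order. A list of 20 genes whose nearest protein match lies outside the willow family summed to 322 to 328 FPKM in female roots at 6 h, against 64.98 to 71.95 FPKM in female control roots, and to 145 to 151 FPKM in male roots at 12 h, against 46.8 to 59.8 FPKM in male control roots. The part of these differences in the results was not tested.

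Tests were made on log2(FPKM + 0.5), which understates changes of low genes, with limma across all 95202 genes that reached 1 FPKM in 3 libraries. A gene was counted as changed, or called, when its adjusted p did not exceed 0.05 and its log2 ratio was 1 or more in either direction. P-values measure only the spread between these libraries, which may be technical. In whole roots, fewer cells of a type and less RNA per cell cannot be told apart.

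CL7345, the match of the plasma membrane exporter NHX7, fell in male roots at all 3 times and in female roots at 12 and 24 h, although divided by *SlActin* the female ratios at these times were positive (1.35 and 3.10). In male libraries it had 64.22, 63.26 and 61.68 FPKM in the control, 23.06, 9.59 and 11.06 FPKM at 6 h, 16.17, 18.09 and 18.97 FPKM at 12 h, and 5.21, 4.4 and 5.37 FPKM at 24 h. Every male NaCl library lay below every male control library, including each of the spread libraries at 6 h, and no male call of CL7345 was lost without any 1 library. In female libraries it had 16.75, 17.66 and 16.16 FPKM in the control, 16.93, 16.7 and 16.62 FPKM at 6 h, 7.77, 7.16 and 7.76 FPKM at 12 h, and 7.42, 8.12 and 7.38 FPKM at 24 h. The female 6 h and control libraries overlapped, whereas those at 12 and 24 h lay below all controls.

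The log2 ratio of CL7345 in male roots was -2.18 at 6 h, -1.80 at 12 h and -3.54 at 24 h (standard error 0.20, limma adjusted p = 4.96e-08, 1.61e-07 and 1.53e-11). In female roots it was -0.01 at 6 h, which did not pass the test, -1.11 at 12 h and -1.09 at 24 h (adjusted p = 1.69e-04 and 1.41e-04). The male control roots thus carried the highest mean of the 8 groups, 63.1 ± 1.28 FPKM, and male roots at 24 h the lowest, 4.99 ± 0.520 FPKM (SD, n = 3 each). Between these extremes, male roots at 12 h, female control roots, and female and male roots at 6 h overlapped with their neighbours in order. After median-ratio scaling its ratio fell short of 1 in female roots at 12 h (-0.97) and 24 h (-0.59, adjusted p = 0.0562) and in male roots at 12 h (-0.98).

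CL3276, a match of the vacuolar NHX1, was called higher in female roots at 6 and 12 h with FPKM as deposited. Its female libraries had 8.09, 7.7 and 8.91 FPKM in the control, 22.28, 23.5 and 22.45 FPKM at 6 h, 17.81, 18.2 and 17.36 FPKM at 12 h, and 12.87, 11.87 and 14.16 FPKM at 24 h. No female NaCl library overlapped with the controls, and the level was highest at 6 h and lower at each later time. Its male libraries had 19.95, 20.2 and 21.25 FPKM in the control, 29.26, 29.67 and 32.46 FPKM at 6 h, 19.68, 19.39 and 18.67 FPKM at 12 h, and 29.91, 34.11 and 31.31 FPKM at 24 h. In males the 6 and 24 h libraries were above the controls and those at 12 h slightly below them.

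The log2 ratio of CL3276 in female roots was 1.41 at 6 h, 1.07 at 12 h and 0.62 at 24 h (standard error 0.09, limma adjusted p = 8.38e-11 and 1.16e-08 at 6 and 12 h). Its male ratios were 0.56, -0.09 and 0.62 at 6, 12 and 24 h, none of which reached 1, and without single male 6 h libraries the ratio at 6 h was 0.52 to 0.59. The male ratios at 6 and 24 h and the female ratio at 24 h fell short of 1 but had low p-values (limma adjusted p = 7.64e-05, 1.2e-05 and 1.6e-05). At 24 h the ratio was thus alike in both sexes with FPKM as deposited. Divided by *SlActin* it was 4.64 in females and 2.78 in males, and that difference was called (1.86, limma adjusted p = 0.00708). Scaling by the median ratio brought the ratios at 24 h past the threshold in both sexes, to 1.12 in females and 1.82 in males.

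CL9910, the other match of NHX1, fell in female roots at 6 h with FPKM as deposited. Its female libraries had 64.85, 66.97 and 65.51 FPKM in the control, 27.82, 29.06 and 29.67 FPKM at 6 h, 41.53, 43.02 and 41.34 FPKM at 12 h, and 45.46, 44.35 and 44.72 FPKM at 24 h. All NaCl libraries of female roots lay below the controls, lowest at 6 h. Its male libraries had 32.05, 30.6 and 30.32 FPKM in the control, 25.19, 28.79 and 46.24 FPKM at 6 h, 19.77, 20.29 and 21.21 FPKM at 12 h, and 29.29, 30.49 and 31.26 FPKM at 24 h. Male roots at 6 and 24 h overlapped with their controls, and at 12 h all 3 libraries were lower.

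The log2 ratio of CL9910 in female roots was -1.18 at 6 h (standard error 0.14, limma adjusted p = 4.34e-07), -0.64 at 12 h and -0.55 at 24 h. Its male ratios were 0.06, -0.59 and -0.03 at 6, 12 and 24 h, none of which reached 1, although that at 12 h had an adjusted p of 0.00114. Without single male 6 h libraries the ratio at 6 h was -0.20 to 0.23. Under median-ratio scaling the ratio in male roots at 24 h was 1.17, past the threshold in the other direction. CL3276 and CL9910, which share their best match, thus had ratios of opposite sign in female roots at 6 h, 1.41 for CL3276 and -1.18 for CL9910, although divided by *SlActin* the ratio of CL9910 was 0.16.

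Unigene43275, the match of the vacuolar NHX2, had the lowest levels of the family. All 3 female control libraries listed it at 0, and it had 2.9, 2.61 and 2.04 FPKM in female roots at 6 h, 0.06, 0.15 and 0.06 FPKM at 12 h, and 0, 0.12 and 0.06 FPKM at 24 h. In females it was thus detected above 1 FPKM at 6 h only. In male libraries it had 1.44, 1.5 and 1.35 FPKM in the control, 1.42, 2.16 and 0 FPKM at 6 h, 3.66, 2.76 and 2.85 FPKM at 12 h, and 0.12, 0.19 and 0 FPKM at 24 h. Male roots at 12 h were all above, and those at 24 h all below, the male controls.

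The log2 ratio of Unigene43275 was 2.58 in female roots at 6 h (standard error 0.38, limma adjusted p = 6.4e-06) and -1.69 in male roots at 24 h (adjusted p = 0.000849). In male roots at 12 h it was 0.89 (adjusted p = 0.0529), which did not pass, and 1.51 under median-ratio scaling, which did. In male roots at 6 h it was -0.50 with all libraries and 0.23 without replicate 3, which was listed at 0. Ratios relative to *SlActin* were 1.46 (adjusted p = 0.0888) in female roots at 6 h and -1.17 (adjusted p = 0.122) in male roots at 24 h.

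CL2217, the match of the endosomal NHX6, did not reach a log2 ratio of 1 at any time in either sex with FPKM as deposited. Divided by *SlActin* it was called at 12 and 24 h, with 2.63 and 3.98 in females and -1.01 and 1.74 in males. Its female libraries had 24.88, 25.93 and 25.38 FPKM in the control, 17.13, 18.36 and 18.45 FPKM at 6 h, 28.54, 26.95 and 26.54 FPKM at 12 h, and 20.62, 19.88 and 19.98 FPKM at 24 h. Its male libraries had 19.09, 17.43 and 18.02 FPKM in the control, 11.75, 22.65 and 18.28 FPKM at 6 h, 10.62, 12.18 and 10.84 FPKM at 12 h, and 13.47, 13.87 and 13.78 FPKM at 24 h. At 6, 12 and 24 h its ratios were -0.49, 0.10 and -0.33 in females and -0.10, -0.67 and -0.39 in males, and without single male 6 h libraries the ratio at 6 h was -0.30 to 0.16. The sum was thus the steadiest of the 5 genes by its largest absolute ratio, 0.67 (standard error 0.15), with FPKM as deposited.

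**Figure D1:**
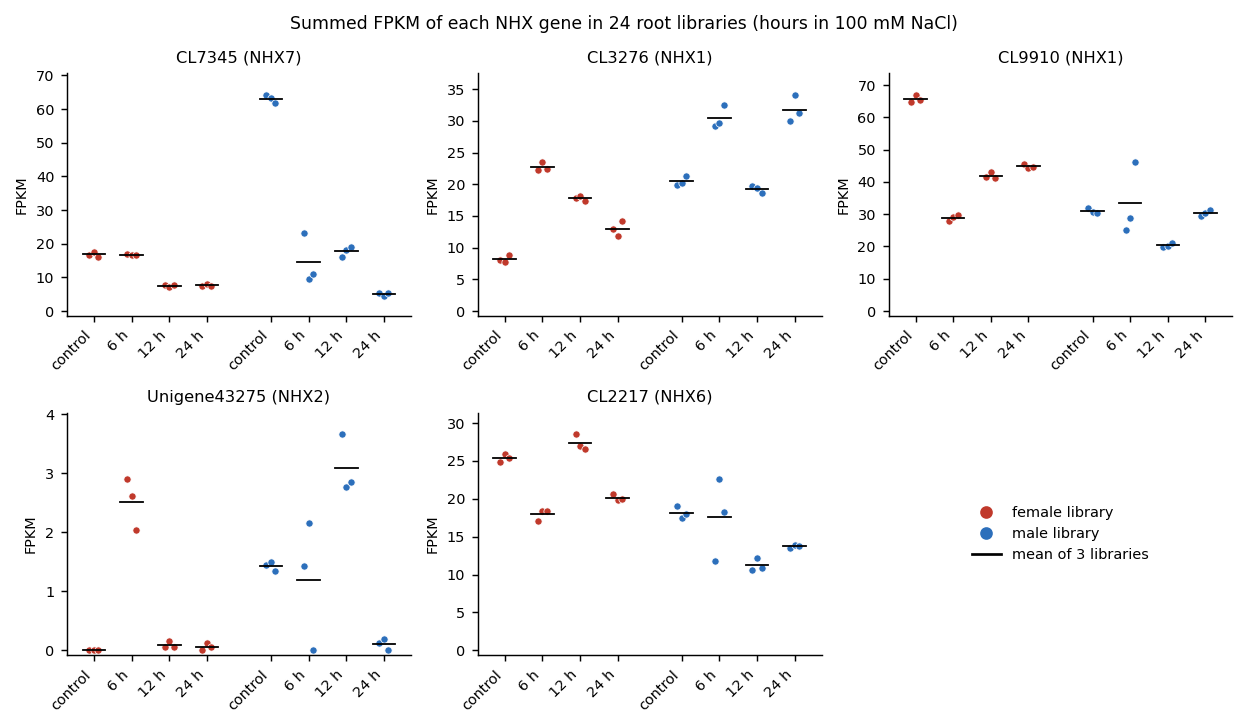
Summed FPKM of each *NHX* gene (vertical axis) in the 8 groups of sex and hours in NaCl (horizontal axis), with a point per library and a line at the mean of 3 libraries. CL7345 is highest in male control roots (63.1 FPKM), CL3276 is lowest and CL9910 highest in female control roots (8.23 and 65.8 FPKM), and the male 6 h libraries are the most spread for every gene except CL3276, where those at 24 h are.

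Counted over the 5 genes, the calls were close to those of all genes. In female roots 3 of 5 were called at 6 h (50.5% of all genes), 2 at 12 h (22.2%) and 1 at 24 h (31.6%). In male roots 1 was called at 6 h (30.3%), 1 at 12 h (49.9%) and 2 at 24 h (39.9%). The median log2 ratio of the 5 genes lay between -0.59 and 0.10 in the 6 comparisons, and that of all genes between -0.30 and 0.14. By direction, the share of all genes higher and lower in females was 29.6% and 20.9% at 6 h, 9.47% and 12.7% at 12 h, with 9.01% and 22.6% at 24 h. In males these shares were 13.2% and 17.2%, 25.4% and 24.5%, and 12.1% and 27.8%. These counts say nothing particular about the family.

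The difference between the responses of the sexes (female minus male) was tested directly. At 6 h it was called for 3 of 5 genes (47.3% of all genes), with 2.17 for CL7345 (standard error 0.28), -1.23 for CL9910 (0.20) and 3.08 for Unigene43275 (0.54). CL7345 was the gene that fell at 6 h in male roots and not in female roots. Without male 6 h replicate 3 the difference was -0.98 for CL9910, short of the threshold, and 2.35 for Unigene43275, whereas for CL7345 it was 1.94 to 2.55 without single male 6 h libraries. Divided by *SlActin* the differences were -0.45 for CL9910 (limma adjusted p = 0.502) and 1.26 for Unigene43275 (adjusted p = 0.327), which did not pass. At 12 h the response differed for 1 gene (48.5% of all genes), CL3276, by 1.15 (standard error 0.13), and by 0.47 under median-ratio scaling. At 24 h it differed for 2 genes (36.5% of all genes), by 2.44 for CL7345 and by 1.85 for Unigene43275, both of which had the lower ratio in males. Divided by *SlActin* that of Unigene43275 was 1.58 (adjusted p = 0.130) and did not pass. The 3 times of a sex shared the same 3 control libraries.

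Levels also differed between female and male roots without NaCl. In the control, 4 of the 5 genes differed (38.1% of all genes), with log2 ratios of female over male roots of -1.87 for CL7345, -1.27 for CL3276, 1.07 for CL9910 and -1.95 for Unigene43275, and CL2217 had 0.47. Divided by *SlActin*, the ratio of CL9910 was -1.85 and that of CL2217 -2.35. The sexes overlapped in CL7345 at 6 h but not in the control. It was at 16.8 ± 0.161 FPKM in female and 14.6 ± 7.39 FPKM in male roots at 6 h, and at 16.9 ± 0.756 FPKM in female and 63.1 ± 1.28 FPKM in male control roots (SD, n = 3 each). At 6 h only Unigene43275 differed (1.13, adjusted p = 0.0210, against 33.5% of all genes called), and that call was lost without female replicate 1 (1.04, adjusted p = 0.0694) or 2 (1.104, 0.0550) or male replicate 3 (0.41, 0.0959). At 12 h, 4 genes differed (49.8% of all genes), with -1.18 for CL7345, 1.02 for CL9910, -2.60 for Unigene43275 and 1.25 for CL2217. At 24 h, 1 gene differed (21.8% of all genes), CL3276 with -1.26. Under median-ratio scaling CL3276 in the control (-0.95) and CL9910 (0.65) and CL2217 (0.89) at 12 h fell short of 1, as did CL9910 at 12 h without male replicate 1 (0.999).

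The sums hid larger changes among the contigs of a cluster. Contigs of 1 cluster can be alleles, splice forms or close copies, and reads that fit several of them may be divided among them in different ways, so the level of a single contig is uncertain. Of the 42 rows, 33 reached 1 FPKM in 3 libraries and were tested among 181249 rows: all 9 contigs of CL9910, 11 of CL3276, 9 of CL2217, 3 of CL7345, and Unigene43275. A contig that passed this filter through a single group had to differ from the other groups. In female roots 16 of the 33 rows were called at 6 h (49.7% of all rows), 6 at 12 h (18.5%) and 3 at 24 h (28%). In male roots 9 were called at 6 h (31.7%), 15 at 12 h (51.5%) and 19 at 24 h (44.9%). The 9 at 6 h became 16 without replicate 1 and 8 without replicate 2 or 3. Between female and male roots 21 were called in the control (41.4%), 8 at 6 h (32%), 19 at 12 h (51.5%) and 17 at 24 h (29.1%).

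In CL3276 a different contig led in different groups. Contig 6 led in female control roots and in female roots at 12 and 24 h, contig 3 in female roots at 6 h and male roots at 24 h, contig 2 in male control roots and, on the mean, in male roots at 6 h, and contig 5 in male roots at 12 h. In every group except male roots at 6 h the same contig led in all 3 libraries. The 13 contigs thus had 4 leaders over 8 groups. Changes of the leader were also counted over clusters of several contigs with 10 FPKM or more in both groups compared. Against the control the leader differed in 56.3%, 18.9% and 21.6% of them in female roots at 6, 12 and 24 h. In male roots it differed in 40.3%, 55.8% and 59.3%, and between female and male control roots in 56.7%. CL3276 in female control roots (8.23 FPKM) was below that limit.

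Contig 6 of CL3276 had 3.82, 3.44 and 4.68 FPKM in female control libraries, 2, 2.45 and 2.57 FPKM at 6 h, 9.57, 9.88 and 8.59 FPKM at 12 h, and 5.85, 5.1 and 6.1 FPKM at 24 h. In male libraries it had 2.09, 1.88 and 2.3 FPKM in the control, 2.89, 0.41 and 3.8 FPKM at 6 h, 0.01, 0 and 0 FPKM at 12 h, and 0, 0.13 and 0.01 FPKM at 24 h. Female roots thus held this contig at all times, while in male roots at 12 and 24 h it was at or near 0. Its log2 ratio of female over male roots was 4.29 at 12 h and 3.50 at 24 h. Against the control it rose in female roots at 12 h (1.14) and fell in male roots at 12 h (-2.36) and 24 h (-2.25), although the call in female roots was lost without either of 2 control or 2 NaCl libraries (adjusted p = 0.0575 to 0.0753).

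Contig 3 of CL3276 had 6.85, 7.25 and 6.83 FPKM in female roots at 6 h, against 0.74, 0.32 and 0.29 FPKM in female control roots. It had 7.72, 7.25 and 8.08 FPKM in male roots at 24 h, against 2.47, 2.64 and 3.08 FPKM in male control roots. Both differences were without overlap, with log2 ratios of 3.01 and 1.34. Contig 5 had 5.46, 5.47 and 5.28 FPKM in female roots at 6 h, against 0.77, 0.77 and 0.58 FPKM in female control roots, and 6.43, 5.81 and 6.45 FPKM in male roots at 12 h, against 1.53, 2.21 and 1.34 FPKM in male control roots. Its log2 ratios were 2.29 and 1.64.

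Contig 2 of CL3276 rose in female roots at 6 h and fell in male roots at 12 and 24 h. It had 4.34, 3.7 and 3.42 FPKM in female roots at 6 h, against 0.22, 0.45 and 0.35 FPKM in female control roots, a log2 ratio of 2.37. It had 1.58, 1.93 and 1.79 FPKM in male roots at 24 h and 3.85, 3.69 and 3.2 FPKM at 12 h, against 8.12, 8.88 and 9.43 FPKM in male control roots, log2 ratios of -2.04 and -1.19. The male libraries at 6 h had 12.88, 2.82 and 9.68 FPKM and so lay on both sides of the control.

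The sum of CL3276 in male roots at 24 h had a ratio of 0.62 and was not called, yet 10 of its 11 tested contigs were. Of these, 7 were higher (contigs 1, 3, 5, 7, 8, 10 and 13) and 3 were lower (contigs 2, 6 and 9), where 15.2% of all rows were higher and 29.7% lower. CL3276.Contig13 had 3.89, 6.4 and 4.05 FPKM in male roots at 24 h and 0, 0 and 0.09 FPKM in male control roots, a log2 ratio of 3.29. CL3276.Contig7 had 2.73, 2.7 and 3.76 FPKM at 24 h and 0, 0.22 and 0 FPKM in the control, a log2 ratio of 2.64. CL3276.Contig8 had 2.4, 2.91 and 1.82 FPKM at 24 h and stood at 0 in each male control library. These 3 contigs stayed below 0.6 FPKM in every female library. They passed the filter only through male roots at 24 h, so that they were higher there was largely set by the filter and is no separate result. The 10 called and 7 higher contigs include them, so these counts were partly set by the filter as well. At 12 h in male roots 4 contigs were higher and 3 lower (24.2% and 27.3% of all rows), with a ratio of -0.09 for the sum. Contigs 1 and 12 passed the filter only through male roots at 12 h, so that they were higher there was largely set by the filter. The count of higher contigs at 12 h has the same limit.

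**Figure D2:**
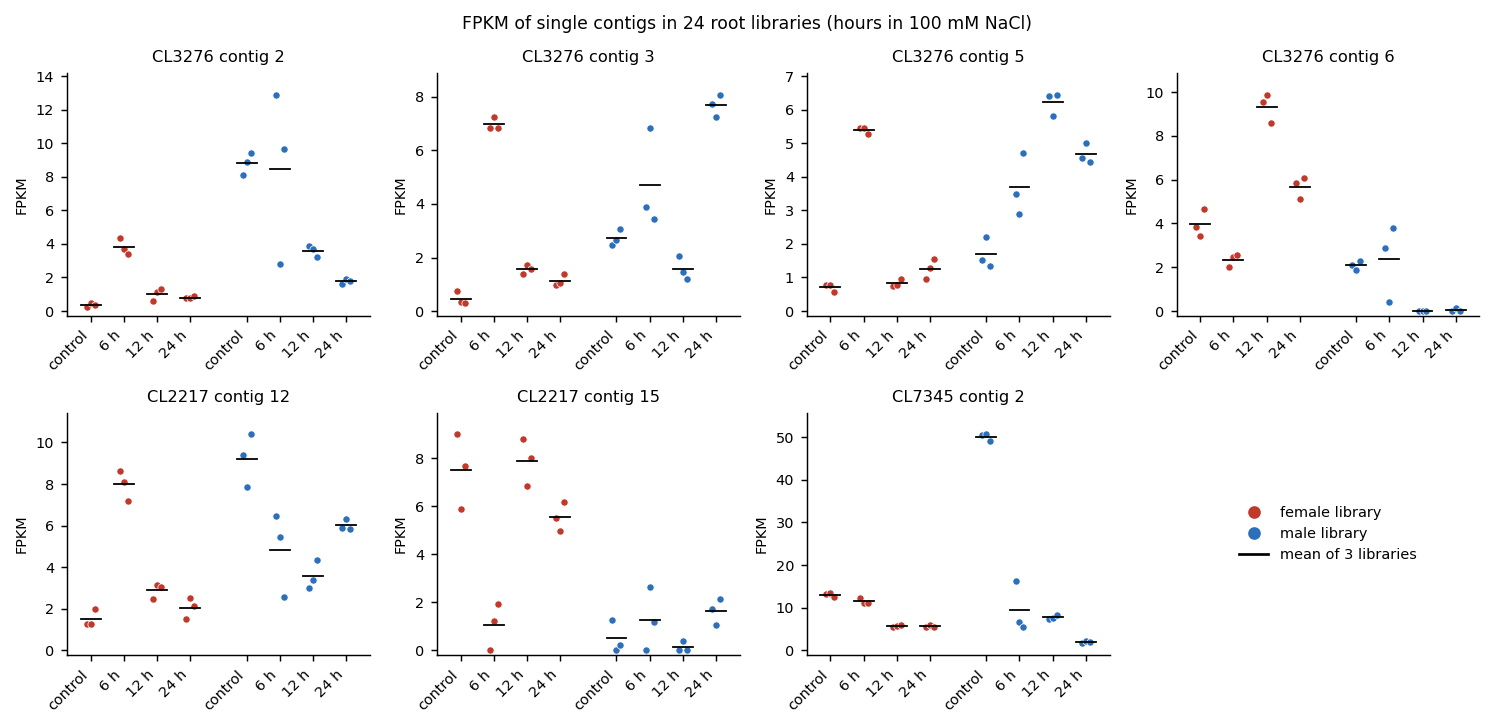
FPKM of 7 contigs that led their cluster in at least 1 group (vertical axis) in the 8 groups of sex and hours in NaCl (horizontal axis), with a point per library and a line at the mean of 3 libraries. Contig 6 of CL3276 is near 0 in male roots at 12 and 24 h, and contig 12 of CL2217 is high in male control roots and in female roots at 6 h, where contig 15 is low.

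In CL2217, whose sum was not called under NaCl with FPKM as deposited, the leading contig also changed. Between female roots at 6 h and their control the leader differed in 56.3% of the clusters counted above. Contig 15 led in female control roots and in female roots at 12 and 24 h, and contig 12 led in female roots at 6 h and in all male groups, although in only 1 of the 3 male libraries at 6 h. Contig 12 had 8.64, 8.12 and 7.2 FPKM in female roots at 6 h, against 1.26, 1.26 and 1.97 FPKM in female control roots. Contig 15 had 0, 1.22 and 1.93 FPKM in female roots at 6 h, against 9, 5.87 and 7.68 FPKM in female control roots. The log2 ratios were 2.10 and -2.63 while that of the sum was -0.49.

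The same exchange separated the sexes in the control, where the leader differed in 56.7% of the clusters counted above. Contig 12 had 1.26, 1.26 and 1.97 FPKM in female control roots, against 9.41, 7.85 and 10.4 FPKM in male control roots, a log2 ratio of -2.29. Contig 15 had 9, 5.87 and 7.68 FPKM in female control roots, against 1.28, 0 and 0.23 FPKM in male control roots, a log2 ratio of 3.19. Over its 9 tested contigs, 2 were higher and 5 lower in female roots at 6 h than in the female control (27.8% and 21.9% of all rows). CL2217.Contig2 and CL2217.Contig5 were listed at 0 in all 3 female libraries at 6 h and had 1.5 to 2.57 FPKM in female control libraries. CL2217.Contig11 had 0, 0 and 0.06 FPKM in female roots at 6 h, against 3.46, 3.17 and 4.68 FPKM in the female control. In female roots at 12 and 24 h none of the 9 contigs was called.

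CL7345 was carried by contig 2, which led in 7 groups. It had 50.49, 50.7 and 49.05 FPKM in male control libraries, 16.17, 6.59 and 5.42 FPKM at 6 h, 7.39, 7.63 and 8.28 FPKM at 12 h, and 1.68, 2.07 and 2.06 FPKM at 24 h. Contig 3 had 8.2, 6.93 and 9.01 FPKM in male control libraries, 4.26, 3 and 4.06 FPKM at 6 h, 6.45, 6.66 and 6.69 FPKM at 12 h, and 2.9, 1.96 and 2.97 FPKM at 24 h. Contig 2 thus fell further than contig 3. Its log2 ratio was -4.38 at 24 h and -2.61 at 12 h, against -1.47 and -0.26 for contig 3. The share of contig 2 in the cluster's FPKM was 39.2% ± 7.44 in male roots at 24 h, against 79.4% ± 0.767 in male control roots, and that of contig 3 was 51.8% ± 6.32, against 12.8% ± 1.83 (SD, n = 3 each). In female roots contig 2 held 68.4% to 77.2% on average in all 4 groups.

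CL9910 was led by contig 6 in all 8 groups and in every library. Its levels were 39.38, 39.4 and 41.14 FPKM in female control libraries, 10.01, 11.43 and 11.22 FPKM at 6 h, 17.9, 19.74 and 18.41 FPKM at 12 h, and 17.76, 18.2 and 18.46 FPKM at 24 h. In male libraries they were 20.77, 21.84 and 20.57 FPKM in the control, 11.01, 12.78 and 22.62 FPKM at 6 h, 6.95, 7.81 and 8.11 FPKM at 12 h, and 17.2, 16.92 and 17.38 FPKM at 24 h. It fell in female roots at all 3 times (log2 ratios -1.83, -1.08 and -1.12) and in male roots at 12 h (-1.41). CL9910.Contig5 rose at 5 of 6 comparisons, with ratios of 1.38 and 1.47 in female roots at 12 and 24 h, and 2.30, 2.08 and 2.19 in males at 6, 12 and 24 h. Without single male 6 h libraries the first of the male ratios was 2.05 to 2.77. Its male control libraries had 0.06, 0.27 and 0.28 FPKM. CL9910.Contig8 was listed at 0 in all 3 female libraries at 6 h and had 2.04, 4.56 and 3.06 FPKM in the female control.

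The share of contig 6 in CL9910 was 60.8% ± 1.98, 37.7% ± 1.68, 44.5% ± 1.39 and 40.5% ± 1.21 in female roots (control, 6, 12 and 24 h). In male roots it was 68.0% ± 3.29 in the control, 45.7% ± 2.83 at 6 h, 37.3% ± 1.86 at 12 h and 56.6% ± 1.84 at 24 h (SD, n = 3 each). In neither sex did the share of a NaCl library overlap with the controls. With 3 libraries against 3, an exact permutation test of a share cannot go below 0.1, so shares are given as a description.

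**Figure D3:**
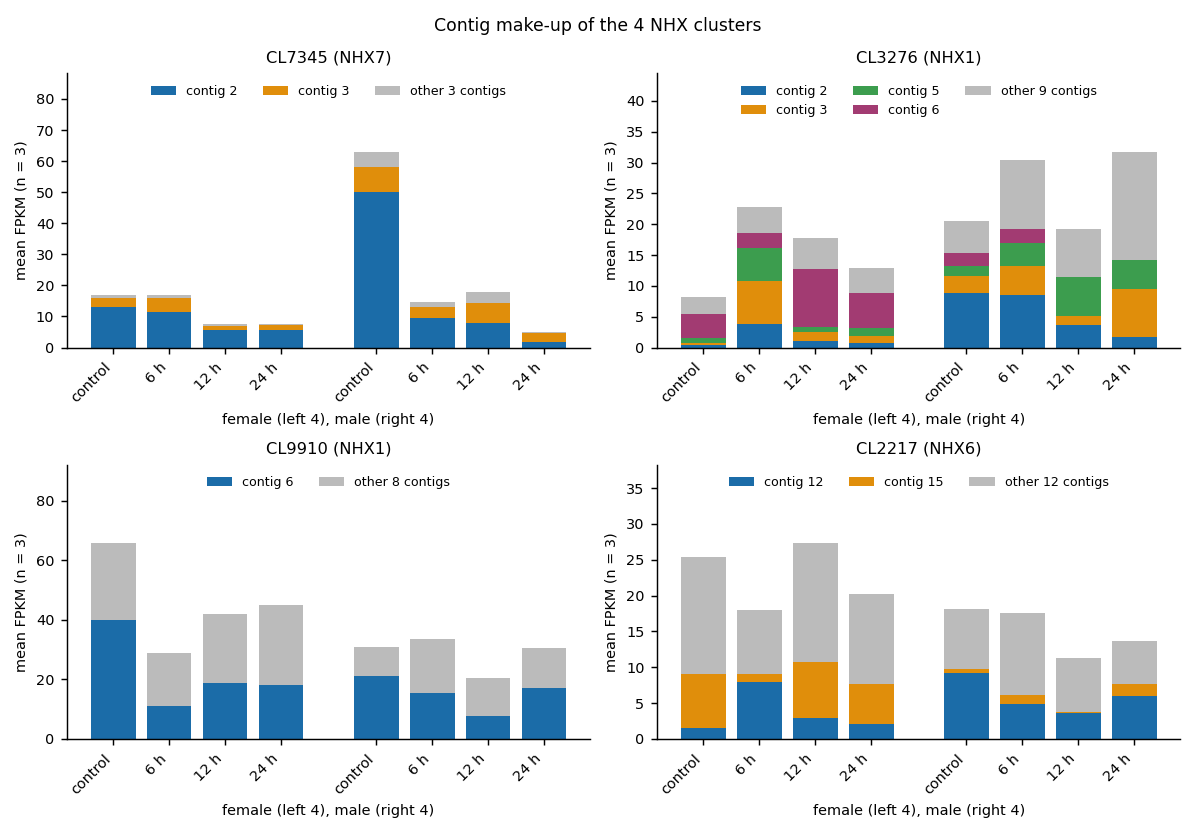
Mean FPKM over 3 libraries (vertical axis) of the contigs that led in at least 1 group, stacked with the sum of the other contigs, in the 8 groups of sex and hours in NaCl (horizontal axis). In CL3276 and CL2217 the leading contig differs between female control roots and female roots at 6 h, whereas contig 6 leads CL9910 in every group. Between female control and 6 h roots the leader differed in 56.3% of clusters of several contigs with 10 FPKM or more in both.

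Whether a contig changed against the rest of its own cluster was tested with limma within libraries, where a scaling of the library cancels apart from the pseudocount. Of 32 contigs, 21 were called in female roots at 6 h (48.4% of all 103651 contigs tested), 1 at 12 h (11.7%) and 3 at 24 h (18.2%). In male roots 12 were called at 6 h (29.5%), 18 at 12 h (51.4%) and 13 at 24 h (46.7%). The 12 at 6 h became 16, 7 and 10 without replicate 1, 2 and 3. Between female and male roots 15 were called in the control (45.7%), 9 at 6 h (33.1%), 17 at 12 h (52.4%) and 15 at 24 h (38.2%). In female roots at 6 h these were 8 of 11 contigs in CL3276, 7 of 9 in CL9910, 6 of 9 in CL2217 and 0 of 3 in CL7345. Fewest were called in female roots at 12 h, as among all contigs.

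The share moved, the percentage of a cluster's FPKM that would have to pass between contigs to make the make-up of 2 groups equal, puts these contigs on 1 scale. Between female roots at 6 h and the female control it was 61.0% in CL3276, 62.7% in CL2217, 36.5% in CL9910 and 10.8% in CL7345. Its median was 34.3% over clusters of several contigs with 10 FPKM or more in the groups or libraries compared, called all clusters here. Below that limit were CL3276 in female control roots (8.23 FPKM) and CL7345 in female roots at 12 and 24 h (7.56 and 7.64 FPKM) and male roots at 24 h (4.99 FPKM). Their values are thus not on a par with these medians. Between female roots at 12 h and the control it was 11.7%, 10.6%, 19.2% and 3.6% in the same clusters, with a median of 7.91%. At 24 h it was 15.1%, 12.8%, 23.96% and 5.99%, with a median of 10.02% over all clusters. In each of these clusters female roots at 6 h were thus further from the control than those at 12 and 24 h. The 10.8% of CL7345 was above the spread between its libraries of either group compared. That spread reached 7.49% in the female control and 8.36% in female roots at 6 h. Outside male roots at 6 h the largest spread of CL7345 was 20.9%, between male libraries at 24 h. CL9910 in female roots differed from the control at all 3 times by more than its libraries of any 1 group outside male roots at 6 h differed from each other (up to 13.6%). CL2217 in female roots at 6 h was closer to male control roots (18.1%) than to female control roots, and over all clusters the median between female roots at 6 h and male control roots was 30.9%. Between female and male control roots that median was 33.4%, near the 34.3% between female roots at 6 h and their control. Whether different plants lie behind such differences between groups was not tested.

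In male roots the share moved between NaCl and control roots in CL3276 was 28.1% at 6 h, 56.4% at 12 h and 59.6% at 24 h. In CL7345 it was 14.98%, 35.7% and 48.2%, and the medians over all clusters at 12 and 24 h were 33.5% and 37.2%. Between 2 libraries of 1 group it was 4.34% to 13.98% in CL3276 and 10.7% to 24.4% in CL2217 outside male roots at 6 h, with a median over all clusters of 6.21% to 7.37%. Among the male 6 h libraries it was 24.8% to 49.6% in CL3276 and 50.2% to 55.2% in CL2217, with a median over all clusters of 31.9% to 34.3%. The contigs of a male 6 h library thus differed from those of the next by as much as between groups.

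**Figure D4:**
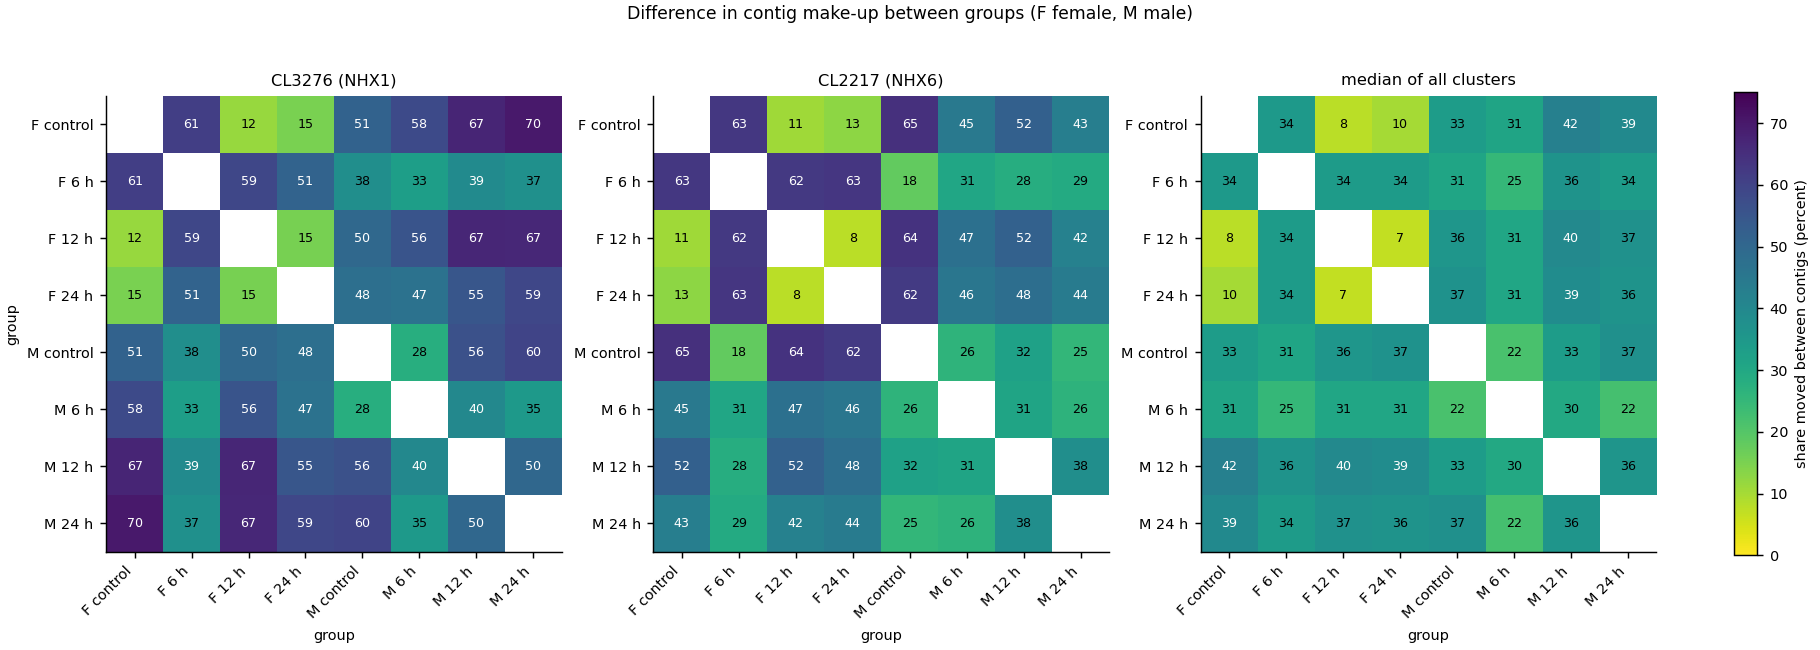
Share moved between contigs, in percent (colour and number), for each pair of the 8 groups (F female, M male; both axes), in CL3276, in CL2217 and as the median over all clusters. The female control, 12 h and 24 h groups form a block of low values (11.7% and 15.1% from the control in CL3276), and female roots at 6 h stand outside it in all 3 maps.

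Each male 6 h library was then set beside the other groups. Replicate 1 was nearest to male control roots over all clusters (median 13.2%), in CL3276 (8.53%) and in CL2217 (19.8%), but to male roots at 12 h in CL9910 (15.3%, against 27.5% from male control roots) and to female roots at 24 h in CL7345 (7.36%, against 9.41%). Replicate 2 was nearest to male roots at 24 h over all clusters (median 14.9%), in CL3276 (16.2%), CL9910 (20.6%) and CL2217 (31.1%), but to female roots at 6 h in CL7345 (4.42%). Replicate 3 was not near any group over all clusters (median at least 29.3%), although it was 8.75% from male roots at 12 h in CL7345 and 12.9% from female roots at 6 h in CL9910. CL3276.Contig13, a contig of male roots at 24 h, had 0.19, 5.99 and 2.48 FPKM in replicates 1, 2 and 3 at 6 h. What separates these libraries was not tested.

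The 9 rows outside the tests were contigs 1 and 4 of CL7345, contigs 4 and 11 of CL3276 and contigs 3, 9, 10, 13 and 14 of CL2217. Contig 1 of CL7345 reached 0.11, 1.38 and 1.77 FPKM in male roots at 12 h and 0 in each female control library. Contig 11 of CL3276 had 0.65, 0.42 and 0.44 FPKM in male roots at 24 h and at most 0.17 FPKM in any other library. In all, 7 of the 42 rows stayed under 1 FPKM in the mean of every group.

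The direction of several sums depended on how libraries were scaled. Median-ratio scaling moved the median log2 ratio of all genes by over 0.1 in 3 of the 6 comparisons with the control, to -0.07 from -0.30 in female roots at 24 h, and to 0.13 at 6 h and 0.15 at 12 h from 0.00 in male roots. Relative to the median of all genes, CL7345 in male roots at 24 h was then at -2.37, against -3.46 as deposited, and CL3276 at 1.82, against 0.70. Over the 30 comparisons of an *NHX* gene with its control, 3 were higher and 7 lower as deposited, 7 were higher and 4 lower under median-ratio scaling, and 13 were higher and 4 lower relative to *SlActin*. The shares of such comparisons called over all genes were 16.5% higher and 20.9% lower as deposited, 19.7% and 14.1% under median-ratio scaling, and 31.8% and 8.12% relative to *SlActin*. Between the sexes 4 of 20 were higher in females and 6 lower as deposited, 2 and 5 under median-ratio scaling, and 2 and 11 relative to *SlActin*, against 21.5% and 14.3%, 20% and 15.6%, and 11.8% and 31.4% of comparisons over all genes. Of the 15 differences of responses 5 were higher and 1 lower as deposited, 4 and 3 under median-ratio scaling, and 9 and 0 relative to *SlActin*, against 22.7% and 21.4%, 16.3% and 25%, and 30.9% and 9.48%. Dividing by *SlActin* moved the median of all genes to 1.61 in female roots at 24 h, and relative to that median CL7345 was at 1.49 and CL9910 at 2.26. CL7345 in male roots and CL3276 in female roots kept their directions under all 3 scalings.

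**Figure D5:**
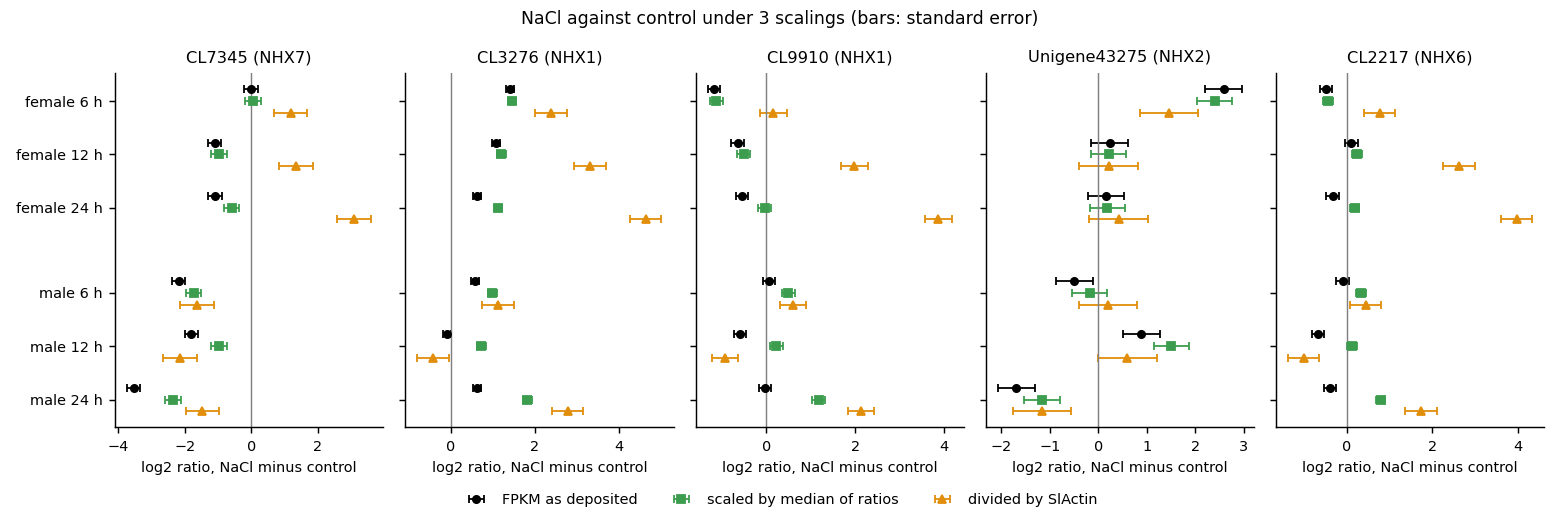
Log2 ratio of NaCl over control roots (horizontal axis) of each *NHX* gene at 6, 12 and 24 h in female and male roots (vertical axis), with FPKM as deposited, scaled by the median of ratios, and divided by *SlActin*. Bars are the standard error from limma. The ratios divided by *SlActin* turn positive in female roots for CL7345 and CL9910 at 12 and 24 h (3.10 and 3.87 at 24 h) and for CL2217 at 24 h (3.98). Those of CL7345, CL9910 and CL2217 at 6 h do so too (1.18, 0.16 and 0.77), without passing the test.

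The genes whose pattern was most like that of each *NHX* gene were found by Pearson's r over the 8 group means of log2(FPKM + 0.5), among 141 genes that the study annotated. The genes were measured in the same libraries, and the most alike was picked from 141, so r is given as a description. CL7345 was most like CL19312, a CBS domain protein (r = 0.956). Unigene43275 was most like Unigene21732 (r = 0.972), CL9910 like Unigene9500 (0.931), CL2217 like Unigene9111 (0.946) and CL3276 like Unigene23185 (0.739), each annotated as an ascorbate peroxidase, an enzyme that removes hydrogen peroxide, as were 38 of the 141 genes. Among the *NHX* genes CL9910 and CL2217 were the most alike (0.855), and CL9910 and Unigene43275 the most opposite (-0.807), but under median-ratio scaling CL7345 and CL2217 were (-0.876, against -0.050 as deposited). Under that scaling Unigene21732 remained first for Unigene43275 (0.976) and CL19312 was second for CL7345, while Unigene9500 was number 11 for CL9910 (0.670), Unigene9111 number 14 for CL2217 (0.661) and Unigene23185 number 34 for CL3276 (0.674). Without the male 6 h group Unigene23185 was number 8 for CL3276.

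A list of 16 other genes of salt signalling and of ion, water and solute transport was read beside them. In female roots 7 of the 16 were called at 6 h (3 higher, 4 lower, against 50.5% of all genes), 5 at 12 h (3 and 2, against 22.2%) and 9 at 24 h (3 and 6, against 31.6%). In male roots 7 were called at 6 h (1 higher, 6 lower, against 30.3%), 10 at 12 h (5 and 5, against 49.9%) and 11 at 24 h (2 and 9, against 39.9%). CL1315, a match of the osmotic stress kinase SAPK1 of rice, rose to 34.58, 30.02 and 32.09 FPKM in female roots at 6 h, against 6.73, 5.74 and 6.46 FPKM in the female control (log2 ratio 2.27). It fell to 3.17, 2.38 and 2.81 FPKM in male roots at 24 h, against 15.27, 17.67 and 16.33 FPKM in the male control (-2.37). Unigene57331, a match of subunit A of the vacuolar proton pump that builds the gradient used by vacuolar NHX proteins, was lower at 6, 12 and 24 h in both sexes (female -2.41, -2.68 and -2.68, male -1.46, -1.74 and -1.91). It was a low gene, with 2.69, 2.78 and 2.67 FPKM in the female control, 1.08, 2.55 and 0.89 FPKM in the male control, and 0 to 0.36 FPKM under NaCl. The female ratios at 12 and 24 h were the floor that the pseudocount sets, since all these libraries were at 0. It passed the filter only through female control roots, so that female NaCl roots were lower was set by the filter. The nearest protein match of Unigene57331 lies outside the willow family, as do those of Unigene7100 and CL4278 of the same 16 genes. Unigene7100, a match of a PIP2 aquaporin, had 64.66, 66.52 and 63.94 FPKM in female roots at 6 h, against 1.29, 1.46 and 1.98 FPKM in the female control. The counts over the 16 genes include these genes. The list was compiled with the study's results known.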

How the data were processed

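Roots of female and male *S. linearistipularis* cuttings were analysed in 24 libraries. RNA was extracted with TRIzol and sequenced on an Illumina platform by BGI. The authors assembled reads with Trinity, clustered contigs into unigenes, and deposited a table of FPKM values per row, which the methods call RPKM. The aligner was not given in the sources used here. A gene was the sum of FPKM over its contigs. Features that reached 1 FPKM in 3 or more libraries entered the tests on log2(FPKM + 0.5), made in R 4.3.3 with limma 3.58.1 and its trended empirical Bayes step, with 8 group means and Benjamini-Hochberg adjustment over all features tested. The thresholds of the methods of the study were used (FDR 0.05 and absolute log2 ratio of at least 1), and the FDR of 0.01 that a legend of the study names was an alternative. For contig usage, log2(FPKM + 0.5) of the other contigs of the cluster was subtracted. The package data.table (1.17.8) read the values, and summaries and figures were made with matplotlib 3.10.9, scipy 1.17.1, pandas 2.3.3 and numpy 2.4.6 under Python 3.11.15. The tests were tried on simulated data.

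The 5 genes and the lists were chosen with earlier results of these data known. Named were all 5 genes, each contig that led its cluster in at least 1 group, the genes with the highest r, and genes of the list of 16. Contigs 1, 7, 8 and 13 of CL3276, 2, 5 and 11 of CL2217, 5 and 8 of CL9910, the contigs outside the tests, and the named genes of the list of 16 were picked after their values were seen. Alternatives were other pseudocounts (0.1 and 1), no filter, an FDR threshold of 0.01, a fit of only the groups compared, a replicate block, the male 6 h libraries left out of the fit, each library left out, median-ratio scaling, values divided by *SlActin*, the most abundant contig alone, and, for shares, contigs under 1 FPKM in every group left out. Libraries of the same replicate number did not deviate together (r across genes from -0.00985 to 0.00989 over 30 pairs of groups). qPCR values were not used here.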

Additional observations from a re-analysis of the deposited data

Results flagged for a closer look

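The response to NaCl differed between female and male roots (female minus male, by limma's test of the interaction) in 6 of 15 comparisons of an *NHX* gene. At 6 h the difference was 2.17 for CL7345, -1.23 for CL9910 and 3.08 for Unigene43275. At 12 h it was 1.15 for CL3276. At 24 h it was 2.44 for CL7345 and 1.85 for Unigene43275. Relative to *SlActin* the difference did not pass for CL9910 and Unigene43275 at 6 h (-0.45 and 1.26) and for Unigene43275 at 24 h (1.58). That of CL3276 at 12 h fell short of 1 under median-ratio scaling (0.47). That of CL9910 at 6 h did so without male 6 h replicate 3 (-0.98). In the same test 47.3%, 48.5% and 36.5% of all genes passed at 6, 12 and 24 h. Groups of 3 libraries are too small for a test of single outlying libraries.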

How the results depend on the processing

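With FPKM as deposited, 10 of 30 comparisons of an *NHX* gene with its control passed, 6 of 15 differences of responses and 10 of 20 comparisons of female with male roots. Other pseudocounts, no filter, the stricter FDR threshold and fits on the compared groups changed no more than 1 of the 65 calls each, that of Unigene43275 between female and male roots at 6 h (0.83 with a pseudocount of 1). Without the male 6 h libraries 9 of 25, 3 of 10 and 9 of 15 passed, since fewer comparisons could be made. The replicate number as a block left the counts at 10, 6 and 10. Replicate numbers were shared between groups, but libraries of the same number did not deviate together. Leaving out single libraries gave 10 to 10, 5 to 6 and 9 to 10 calls.

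Values divided by *SlActin* gave 17 of 30 calls against control. Among results called under either setting, the direction then changed for CL7345 in female roots at 12 h (1.35) and 24 h (3.10) and between the sexes at 6 h (-1.81), for CL9910 in female roots at 6 h (0.16), 12 h (1.98) and 24 h (3.87), in male roots at 24 h (2.13), in the difference of responses at 12 h (2.90) and 24 h (1.74) and between the sexes in the control (-1.85), for Unigene43275 between the sexes at 6 h (-0.80), and for CL2217 in female roots at 24 h (3.98), in male roots at 24 h (1.74) and between the sexes in the control (-2.35) and at 6 h (-2.03). Median-ratio scaling changed the direction of 1 such result, CL9910 in male roots at 24 h (1.17). A further 9 results under median-ratio scaling and 8 relative to *SlActin* changed sign without a call under either setting, among them, under median-ratio scaling, CL2217 in male roots at 12 h (0.13) and 24 h (0.79), CL9910 in male roots at 12 h (0.22) and CL3276 in male roots at 12 h (0.72). Calls lost relative to *SlActin* without a change of sign included CL7345 between the sexes at 12 h (-1.14, limma adjusted p = 0.0742).

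The contig with the highest mean alone, in place of the sum, gave 16 calls against control and 11 of 15 differences of responses. The direction changed for CL3276 in male roots at 24 h (-2.04) and for CL2217 in female roots at 6 h (2.10), in the difference of responses at 6 h (3.05) and between the sexes in the control (-2.29), at 12 h (-0.26) and at 24 h (-1.37). These are the values of contig 2 of CL3276 and contig 12 of CL2217, the single contigs used. Why these contigs differed from their sums, and the cause of the changes under the other settings, was not tested. For contigs, 68 comparisons with the control passed (64 to 75 without single libraries) and 65 of 132 between the sexes (62 to 66), and 124 of 320 in contig usage (118 to 132). Leaving out contigs under 1 FPKM in every group moved 2 shares by more than their SD, those of contig 2 of CL7345 in female control roots (79.8%) and at 12 h (80.1%). Values of a few FPKM are the least precise, and no read counts were used to bound them.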

Other observations

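Among other transport genes of the list of 16, CL1787, a match of the sugar transporter STP13, rose in all 6 comparisons, with log2 ratios at 6, 12 and 24 h of 2.49, 2.65 and 3.75 in females and 4.82, 4.67 and 5.62 in males. CL14846, a match of HAL3A, an enzyme of coenzyme A synthesis linked to salt tolerance in Arabidopsis and yeast, fell in 5 of 6, with -1.15, -0.998 and -1.36 in female and -1.32, -1.62 and -2.61 in male roots, of which -0.998 in female roots at 12 h did not reach 1.

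Unigene26736, a match of annexin D5, a calcium-dependent membrane-binding protein, had 12.65, 11.39 and 11.55 FPKM in female roots at 24 h, against 0.16, 0.17 and 0.26 FPKM in male roots at 24 h (log2 ratio 4.15, by limma). These genes were picked after their values were seen.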
